A study of Rattus norvegicus with 60 samples.

Results

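The livers of vehicle-treated rats after 28 days of gavage were compared with those after 7 days, to show how the liver transcriptome of a young male rat that received no test compound differed over 3 weeks. The members were chosen by the treatment label, which gives 10 of the 60 libraries of the series: 5 vehicle livers of day 28 and 5 vehicle livers of day 7. All 10 rats were male Sprague-Dawley rats, an outbred stock, housed singly and given water by oral gavage. Their sample records give an age of 10 to 11 weeks for day 28 and 7 to 8 weeks for day 7, while the design text describes all rats as 5 to 6 weeks old. The other rats of the series received water until day 14, or perfluorooctanoic acid (PFOA, a perfluorinated surfactant known to activate the nuclear receptor PPARα in rodent liver) at 1, 5 or 15 mg/kg per day until day 7, 14 or 28. Each library is polyA RNA of 1 flash-frozen liver, and every rat counts as a biological replicate. The labels name no batch, so the day of killing and any handling shared by the rats of that day cannot be told apart.

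The rat liver keeps changing after weaning. Hepatocyte division slows while the organ enlarges with the body, the matrix laid down by stellate cells matures, the fetal role of the liver in making red blood cells has ended, and growth hormone secreted in a male pattern sets sex-biased cytochrome P450 genes. Hepatocytes also carry out cholesterol and fatty acid synthesis, amino acid breakdown and the metabolism of foreign compounds, all of which vary with feeding, hormones and time of day.

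The tissue label held: 11 of 12 hepatocyte markers were tested, with albumin at 68012 to 147482 CPM (counts scaled to a common library size) in day 28 livers and 99284 to 197632 CPM in day 7 livers. The summed level of the 11 markers ran from 144710 to 220611 CPM in day 28 livers and from 181067 to 277877 CPM in day 7 livers. Total counts of the 10 libraries lay between 8773160 and 18609276. Libraries of the series differed most along an axis that ran within groups and set ribosomal protein genes against genes of large proteins, and each library's position on it (the library score) was a covariate of every test. The score averaged -0.18 ± 1.09 in day 28 livers and -0.06 ± 1.16 in day 7 livers (SD, n = 5 each, two-sided exact permutation p = 0.81, the smallest possible being 0.00794). Mitochondrially encoded genes took 3.47% ± 0.882 of the reads in day 28 livers and 3.22% ± 1.77 in day 7 livers (SD, n = 5 each, exact permutation p = 0.754). A second within-group axis, not in the main model, did differ, at -0.54 ± 0.80 in day 28 livers and 0.53 ± 0.60 in day 7 livers (SD, n = 5 each, exact permutation p = 0.0397). In bulk livers, fewer cells of a type and less RNA per cell cannot be told apart.

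Few genes passed the test between the vehicle livers of both days, and a gene that was not called is not shown to be unchanged. Of 12167 genes tested with edgeR's quasi-likelihood method, 108 passed an adjusted p of 0.05, which is 0.888%. Higher at day 28 were 69 genes (0.567%), with a median log2 fold change of 0.71, and lower were 39 genes (0.321%), with a median of -0.85. Changes of at least 2-fold were found in 15 genes in each direction, and 32 of the called genes changed by less than 1.5-fold. The median log2 fold change of all genes tested was -0.0034. An unadjusted p under 0.05 was reached by 2028 genes, 1228 higher and 800 lower, which is 16.7% of those tested. The CPM of the 5 day 28 and the 5 day 7 livers did not overlap for 18 of the 108 called genes and overlapped for the other 90, while 88 genes of all tested (0.723%) did not overlap.

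The count rested on the library score. Without it, 2 genes were called higher (AABR07037307.1 and Sdr16c6) and 3 lower (Sparc, Aldh1a1 and Alox15), and with the second axis added the model called 17 higher and 10 lower, 23 of them among the 108. All 108 genes kept their sign in both models. Single libraries also moved the count: leaving out day 28 library 1, 2, 3, 4 or 5 gave 20, 27, 7, 34 or 168 higher genes and 11, 23, 11, 14 or 91 lower genes. Leaving out day 7 library 1, 2, 3, 4 or 5 gave 19, 71, 17, 38 or 35 higher genes and 8, 36, 15, 31 or 27 lower genes.

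**Figure D1:**
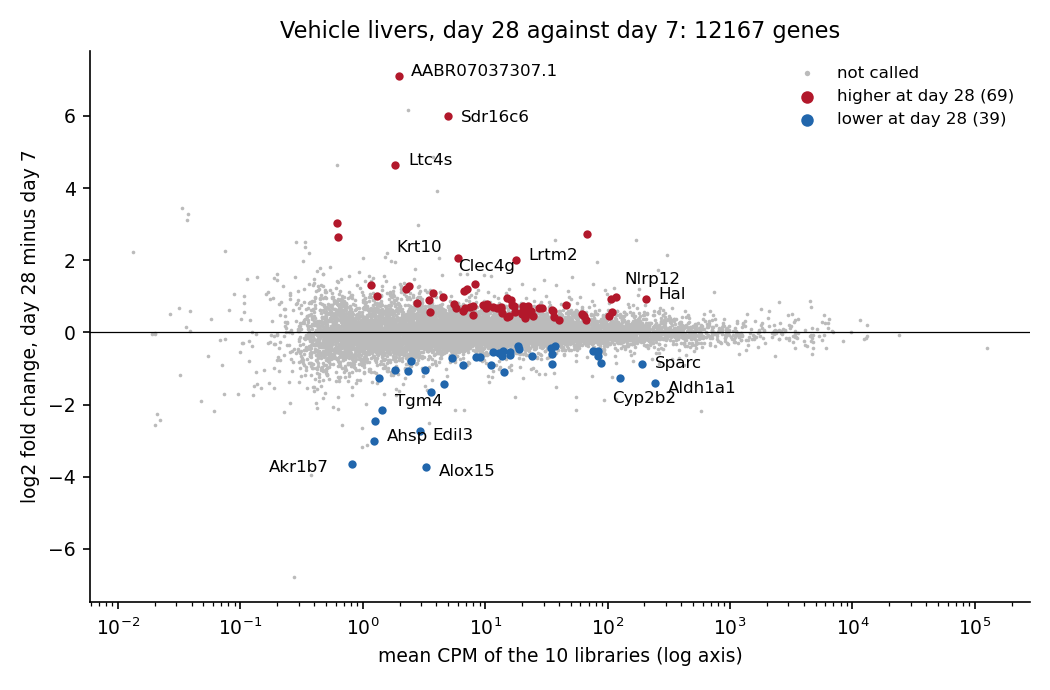
Each point is 1 of 12167 genes, with its mean CPM over the 10 vehicle livers on a log axis across and its log2 fold change of day 28 over day 7 up the page, and called genes are coloured by direction. The 69 higher and 39 lower genes lie at low and middle levels, the highest group mean being 359 CPM for Aldh1a1 at day 7. The changes of at least 2-fold lie mostly among genes of low CPM.

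Among matrix genes, Sparc fell and the fibrillar collagen Col3a1 pointed the same way without passing the test. Sparc encodes a secreted, collagen-binding glycoprotein that is made by stellate and endothelial cells in liver and is abundant where matrix is being laid down or remodelled. Its level was 144, 152, 119, 114 and 147 CPM in day 28 livers, against 287, 214, 279.8, 239 and 214 CPM in day 7 livers. Every day 28 liver was below every day 7 liver, and the day 14 vehicle livers, at 225 ± 24.1 CPM (SD, n = 5), lay close to those of day 7. The log2 fold change was -0.88 ± 0.15 (SE, adjusted p = 0.00128), and Sparc passed the threshold in all 21 alternatives tried. Col3a1, the alpha chain of type III collagen, had 204, 189.8, 195, 124 and 207 CPM in day 28 livers, against 271.6, 321.9, 394, 334 and 404 CPM in day 7 livers. These values do not overlap either, with a log2 fold change of -0.88 ± 0.27 (SE), yet the adjusted p of 0.0984 missed the threshold.

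Of 29 matrix genes tested, Sparc was the only one called, 25 had a negative and 4 a positive estimate, and the median log2 fold change was -0.34 beside -0.0034 for all genes. Col18a1, whose product is a basement membrane collagen, was among the positive ones, with a log2 fold change of 0.68 ± 0.19 (SE, adjusted p = 0.0688). None of 17 stellate cell and fibroblast markers was called, with a median of -0.29. Their summed level was 436 to 624 CPM in day 28 livers and 675 to 852 CPM in day 7 livers, but most of that difference was Col3a1, a member of the list. Without Col3a1 the other 16 markers summed to 311.3 to 416 CPM in day 28 livers and 368 to 448 CPM in day 7 livers, ranges that overlap, and the part of stellate cell content in the fall of Sparc was not tested.

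Among erythroid genes, 1 fell. Ahsp, the chaperone that stabilises free alpha globin in red cell precursors, had 0.426, 0.341, 0.0786, 0.146 and 0.466 CPM in day 28 livers, against 5.61, 0.999, 0.758, 2.98 and 0.641 CPM in day 7 livers. The groups did not overlap, though day 7 libraries 3 and 5 were close to the day 28 range. The log2 fold change was -3.02 ± 0.48 (SE, adjusted p = 0.0004), and the call held whichever of the 10 libraries was left out, with an adjusted p of at most 0.0246, but was missed without the library score (0.06). Day 14 livers averaged 0.769 ± 0.519 CPM (SD, n = 5), between both.

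Alas2 encodes the erythroid form of the first enzyme of haem synthesis, and its level was 1.06, 1.59, 1.18, 1.17 and 8.26 CPM in day 28 livers, against 29.1, 6.58, 4.42, 9.3 and 4.84 CPM in day 7 livers. Day 28 library 5 lay inside the day 7 range, and the log2 fold change of -2.16 ± 0.70 (SE) had an adjusted p of 0.108. Beta globin (Hbb) was highest in the same liver of each group as Alas2, while the order of the other livers differed. It had 235, 95.3, 28.7, 29.4 and 1072 CPM in day 28 livers and 1793, 145, 828, 1498 and 118 CPM in day 7 livers. Its groups overlapped, with day 28 library 5 far above the other day 28 livers, and its log2 fold change was -2.17 ± 0.71 (SE, adjusted p = 0.115). Of 9 erythroid genes tested, counted by identifier and carrying 8 symbols, 1 was called. Negative estimates were 7 and positive ones 2, and the median log2 fold change was -1.88. The positive estimates were those of Tmod1, which caps actin filaments (1.78, adjusted p = 0.157), and the transcription factor Tal1 (0.14, adjusted p = 0.946).

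The summed level of the erythroid list was 60.4 to 1275 CPM in day 28 livers and 207 to 2344 CPM in day 7 livers. Another 11 members, several of them genes of the red cell membrane and its blood groups, had too few counts to be tested. Hemgn had 1 count over the 5 day 28 livers and 37 over the 5 day 7 livers, Rhd had 3 in day 28 livers and 24 in day 7 livers, and Kel had 2 in day 28 livers and 24 in day 7 livers. In contrast, Epor, the erythropoietin receptor, had 19 counts in day 28 livers and 15 in day 7 livers, and Epb42 had 33 in day 28 livers and 43 in day 7 livers. Klf1 had 5 counts in each group, and Gata1, the master regulator of the lineage, had no count in either. Several of these markers had lower counts in day 28 livers and others did not, and the part of erythroid cell content in its fall was not tested. Among the called genes outside the list, Bpgm, which makes the 2,3-bisphosphoglycerate of red cells, fell by 0.58 on the log2 scale (SE 0.15, adjusted p = 0.0441).

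The promoter of Alas2 is shown because its gene is a standard target of GATA factors, which bind around the letters GATA. The sequence is RefSeq's for the rat build GRCr8, chrX:22895200-22895499 on the plus strand, from 250 bases before to 50 after the annotated start, with AGATAA in capitals.
Alas2: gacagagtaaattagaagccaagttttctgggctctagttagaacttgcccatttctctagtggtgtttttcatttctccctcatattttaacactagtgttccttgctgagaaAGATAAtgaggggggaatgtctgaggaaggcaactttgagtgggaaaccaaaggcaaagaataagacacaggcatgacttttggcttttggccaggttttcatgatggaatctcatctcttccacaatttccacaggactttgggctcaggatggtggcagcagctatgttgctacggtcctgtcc
The search for AGATAA on both strands found 1 match here. The motif stands in 3877 of 33469 rat promoters of the same length (11.6%), and in 2 of the 6 tested erythroid genes that have an entry, Alas2 and Tspo2. A match is a description of these letters only.

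The largest decreases were in genes of low level. Alox15 encodes arachidonate 15-lipoxygenase, an enzyme of eosinophils and some macrophages. It had 0.532, 0.114, 0.471, 0.146 and 0.866 CPM in day 28 livers, against 19.4, 3.75, 1.26, 3.85 and 2.51 CPM in day 7 livers. All day 28 values were below all day 7 values, and the log2 fold change was -3.74 ± 0.72 (SE, adjusted p = 0.00658). Day 7 library 1 stood far above the rest, and without it the log2 fold change was -2.63 and the adjusted p 0.0811. Neutrophil and mast cell markers had no called gene among 7 tested, with a summed level of 7.51 to 13.8 CPM in day 28 livers and 8.00 to 15.6 CPM in day 7 livers.

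Tgm4, known in rodents as the prostate transglutaminase, had 0.639, 0.682, 0.314, 0.364 and 0.599 CPM in day 28 livers, against 2.42, 0.833, 2.15, 5.09 and 1.4 CPM in day 7 livers. The groups were apart, narrowly so through day 7 library 2, and the log2 fold change was -2.16 ± 0.40 (SE, adjusted p = 0.00402, at most 0.0275 with any 1 library left out). Art4, an ADP-ribosyltransferase family member that carries the Dombrock blood group in humans, had 0.532, 0.227, 0.786, 1.09 and 1.2 CPM in day 28 livers, against 2.42, 1.67, 1.39, 1.74 and 2.62 CPM in day 7 livers. It fell without overlap by 1.26 on the log2 scale (SE 0.29, adjusted p = 0.0213), but it missed the threshold without day 28 library 1, 2 or 3 or day 7 library 1 or 5, where its adjusted p reached 0.0945. AABR07054614.1, a gene the table names only by its clone, had 1.92, 0.795, 2.51, 0.875 and 2.4 CPM in day 28 livers, against 5.72, 3.33, 5.43, 4.22 and 8.92 CPM in day 7 livers. It did not overlap between days and fell by 1.65 on the log2 scale (SE 0.36, adjusted p = 0.0153), a call missed without day 28 library 2 or 4 or day 7 library 5 (adjusted p up to 0.0607). Septin 8, a member of the septin family of filament-forming GTPases, had a log2 fold change of -1.05 ± 0.25 (SE, adjusted p = 0.0294), also without overlap. Its call was missed in 7 of 10 leave-one-out models, all but those without day 28 library 5 or day 7 library 2 or 5 (adjusted p up to 0.11).

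The decreases of 2-fold or more given next were chosen for mention after their values were seen. Adgrg2, an adhesion receptor best known from the epididymis, had 0.213, 1.02, 0.236, 0.364 and 0.2 CPM in day 28 livers, against 2.86, 2.42, 0.884, 1.86 and 2.62 CPM in day 7 livers. Day 28 library 2 and day 7 library 3 crossed, and the log2 fold change was -2.45 ± 0.56 (SE, adjusted p = 0.0217, up to 0.0973 with 1 library left out). Edil3, a secreted integrin-binding protein, had a log2 fold change of -2.75 ± 0.67 (SE, adjusted p = 0.0384, up to 0.0911 with 1 library left out). Car2, a cytosolic carbonic anhydrase, had one of -1.11 ± 0.28 (SE, adjusted p = 0.041), and Ppic, a cyclophilin of the secretory pathway, one of -1.05 ± 0.27 (SE, adjusted p = 0.0441). All 3 overlapped between groups, and leaving out 1 library ended the call of Car2 in 8 of 10 models (all but day 28 library 3 and day 7 library 2, adjusted p up to 0.135) and that of Ppic in 7 (all but day 28 library 5 and day 7 libraries 2 and 4, up to 0.12). Akr1b7, an aldo-keto reductase listed among female-predominant genes, was carried by 2 day 7 livers. It had 0.426, 0.114, 0, 0 and 0.0666 CPM in day 28 livers, against 1.65, 0.167, 5.68, 0 and 0.0583 CPM in day 7 livers, with an adjusted p of 0.0441 that reached 0.243 when 1 library was left out.

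Genes of foreign compound metabolism were lower where they were called. Aldh1a1 makes retinoic acid from retinaldehyde and also oxidises other aldehydes. It had 36, 242, 69.6, 185 and 129 CPM in day 28 livers, against 484, 467, 356, 169 and 318.7 CPM in day 7 livers. Only day 7 library 4 reached down into the day 28 range, and the log2 fold change was -1.41 ± 0.26 (SE, adjusted p = 0.00402, at most 0.0288 with any 1 library left out). Cyp2b2, the cytochrome P450 that phenobarbital induces through the receptor CAR, had 22.9, 129, 74.7, 113 and 27.5 CPM in day 28 livers, against 179.6, 268.8, 135, 117 and 201 CPM in day 7 livers.

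Its groups overlapped only through day 28 library 2 and day 7 library 4, and Cyp2b2 fell by 1.28 on the log2 scale (SE 0.30, adjusted p = 0.0294). It missed the threshold without day 28 library 1, 3 or 4 or day 7 library 1, 3 or 4, with an adjusted p of up to 0.12. Reads of Cyp2b2 and its close copy Cyp2b1 may have been split between both, and Cyp2b1 had a log2 fold change of -0.86 ± 0.34 (SE, adjusted p = 0.186). Of 18 tested targets of the receptors CAR, PXR and AHR, these 2 were called lower and none higher, with 12 negative and 6 positive estimates and a median log2 fold change of -0.18. Cyp1a2, which the AHR controls, had -0.89 ± 0.26 (SE, adjusted p = 0.0821), while Cyp3a9 had 1.17 ± 0.42 (SE, adjusted p = 0.144).

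Vnn1, a pantetheinase and a well known target of PPARα, had 38.0, 109, 39.7, 68.8 and 64.5 CPM in day 28 livers, against 175, 122, 104, 104 and 65.6 CPM in day 7 livers. The groups overlapped, with day 7 library 5 near the middle of the day 28 range, and the log2 fold change was -0.85 ± 0.20 (SE, adjusted p = 0.0294). The call was missed without day 28 library 1 or 3 or day 7 library 1 or 2, where the adjusted p reached 0.141. It was the only one called among 31 genes of fatty acid oxidation and ketogenesis, whose median log2 fold change was -0.09.

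In cholesterol synthesis, most genes pointed down and 1 was called. Hsd17b7, which reduces the 3-keto group of sterol intermediates, had 3.73, 9.77, 8.72, 7.65 and 6.92 CPM in day 28 livers, against 15.8, 19.7, 10.7, 7.94 and 20.6 CPM in day 7 livers. Day 7 library 4 fell inside the day 28 range, and the log2 fold change was -0.90 ± 0.22 (SE, adjusted p = 0.0384). The call was missed without day 28 library 1, 3 or 4 or day 7 library 1, 3 or 5, with an adjusted p of up to 0.14. Msmo1, the C4-methylsterol oxidase, had 21.6, 82.9, 26.3, 43.4 and 50.9 CPM in day 28 livers, against 167, 90.5, 124, 80.0 and 61.7 CPM in day 7 livers. It overlapped through day 28 library 2, and its log2 fold change of -1.21 ± 0.33 (SE) had an adjusted p of 0.0555.

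Sqle, the squalene epoxidase, had 3.73, 19.4, 6.05, 15.0 and 14.7 CPM in day 28 livers, against 41.5, 34.6, 29.4, 18.9 and 22 CPM in day 7 livers. Its groups crossed by a single pair of libraries, with a log2 fold change of -1.28 ± 0.37 (SE, adjusted p = 0.0778). Idi1, the isopentenyl diphosphate isomerase, had -1.23 ± 0.37 (SE, adjusted p = 0.0849). Over the 25 genes of the pathway, 22 estimates were negative and 3 positive, and the median log2 fold change was -0.36 beside -0.0034 for all genes. The summed level was 1562 to 2696 CPM in day 28 livers and 2621 to 3476 CPM in day 7 livers, ranges that overlap narrowly, and 2763 CPM on average in day 14 livers.

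The promoter of Hsd17b7 is shown because it was the called gene of this pathway, whose promoters are bound by the sterol-regulated factor SREBP2 together with NF-Y, a factor of the CCAAT box. The sequence is RefSeq's for GRCr8, chr13:84722705-84723004 on the minus strand, from 250 bases before to 50 after the annotated start, with the reverse complement of CCAAT in capitals.
Hsd17b7: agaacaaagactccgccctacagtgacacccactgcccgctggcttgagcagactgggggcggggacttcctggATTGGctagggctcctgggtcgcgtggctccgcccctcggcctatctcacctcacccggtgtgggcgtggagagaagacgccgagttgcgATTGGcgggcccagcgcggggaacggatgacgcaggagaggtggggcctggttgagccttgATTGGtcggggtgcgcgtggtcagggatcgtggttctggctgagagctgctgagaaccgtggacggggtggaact
The search for CCAAT on both strands found 3 matches here, all in the reverse orientation. The motif stands in 12549 of 33469 rat promoters of that length (37.5%) and in 14 of the 17 tested pathway genes that have an entry. Nothing about the binding of a factor follows from it.

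Fatty acid synthesis did not share that direction. Acacb, the acetyl-CoA carboxylase whose malonyl-CoA restrains fatty acid oxidation, had 7.67, 24.2, 29.1, 27.2 and 7.86 CPM in day 28 livers, against 10.9, 16.2, 5.3, 4.22 and 17.1 CPM in day 7 livers. The groups overlapped, and Acacb rose by 0.96 ± 0.25 on the log2 scale (SE, adjusted p = 0.0458). Without the library score its log2 fold change was 0.83, with an adjusted p of 1. It missed the threshold in 9 of the 10 leave-one-out models, all but that without day 28 library 5, with an adjusted p of up to 0.176. Srebf1, the lipogenic transcription factor, had a log2 fold change of 0.98 ± 0.30 (SE, adjusted p = 0.0893), and Scd, the stearoyl-CoA desaturase, had 1.73 ± 0.56 (SE, adjusted p = 0.107). Scd lay at 576, 39.1, 1070.0, 160.5 and 160.5 CPM in day 28 livers, against 163, 55.2, 91.6, 104 and 165 CPM in day 7 livers, so 2 day 28 livers carried the difference. Of 19 lipogenic genes, 1 was called higher and none lower. Positive estimates were 10 and negative ones 9, down to -0.68, with a median log2 fold change of 0.09.

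The list of amino acid breakdown and the urea cycle had 1 called gene in 37. Hal, the histidine ammonia-lyase that starts histidine breakdown, had 259.8, 122, 493, 317.4 and 137 CPM in day 28 livers, against 114, 202, 98.9, 85.6 and 218 CPM in day 7 livers. The ranges overlapped, and it rose by 0.93 ± 0.22 on the log2 scale (SE, adjusted p = 0.0331), a call missed without day 28 library 1, 3 or 4 or day 7 library 1, 3 or 4 (adjusted p up to 0.169). Positive estimates were 26 of 37, with a median log2 fold change of 0.24. An unadjusted p under 0.05 in the edgeR test was reached by 13 higher and 3 lower genes. The negative estimates included Glul, the glutamine synthetase of hepatocytes around the central vein. Its level was 115, 115, 188, 209.6 and 235 CPM in day 28 livers, against 345, 234, 251.8, 258.99 and 361 CPM in day 7 livers, with a log2 fold change of -0.74 ± 0.21 (SE, adjusted p = 0.0706). The highest day 28 liver reached the day 7 range. Asns, the asparagine synthetase, had 0.639, 0.341, 1.18, 1.09 and 1.2 CPM in day 28 livers, against 1.87, 3.75, 2.4, 2.36 and 3.9 CPM in day 7 livers. It did not overlap between days, yet its log2 fold change of -1.58 ± 0.49 (SE) had an adjusted p of 0.102.

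Genes of growth and division showed little that passed the test. Kif11, the kinesin motor that separates the poles of the mitotic spindle, had 1.28, 1.82, 2.12, 1.31 and 1.07 CPM in day 28 livers, against 5.72, 3.41, 2.02, 1.36 and 3.32 CPM in day 7 livers. Day 7 libraries 3 and 4 lay within the day 28 range, and Kif11 fell by 1.07 on the log2 scale (SE 0.27, adjusted p = 0.0396), a call missed without day 28 library 1, 3, 4 or 5 or day 7 library 1 or 5 (adjusted p up to 0.184). It was 1 of 44 cell cycle genes tested, of which 35 had negative and 9 positive estimates, with a median log2 fold change of -0.34. The proliferation marker Mki67 had 1.49, 0.568, 4.16, 0.583 and 0.399 CPM in day 28 livers, against 2.64, 2.58, 2.15, 0.62 and 3.56 CPM in day 7 livers. Day 28 library 3 was the highest of all 10, and the log2 fold change was -0.69 ± 0.41 (SE, adjusted p = 0.402).

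None of 22 genes of the growth hormone and IGF axis was called, with a median log2 fold change of 0.03. Igf1, the growth factor the liver secretes under growth hormone, had 689.6, 446, 709.8, 716 and 586 CPM in day 28 livers, against 527, 629.6, 533, 563 and 537 CPM in day 7 livers. The groups overlapped, and the log2 fold change was 0.18 ± 0.15 (SE, adjusted p = 0.593). The growth hormone receptor Ghr had 0.03 ± 0.11 (SE, adjusted p = 0.932), and Socs2, which damps its signal, had -1.81 ± 0.73 (SE, adjusted p = 0.197). The fetal genes Afp and Igf2 had 0.35 ± 0.21 (SE, adjusted p = 0.392) and -0.08 ± 0.57 (SE, adjusted p = 0.967), and none of 12 oncofetal and imprinted genes was called.

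Sex-biased genes gave 1 call. Of 16 male-predominant genes none was called, with a median log2 fold change of 0.09, and Cyp2c11, the P450 that defines the adult male rat liver, had 2304, 1935, 1971, 2456 and 2376 CPM in day 28 livers, against 1999, 1851, 1206, 3114 and 1690.1 CPM in day 7 livers. Its day 7 range enclosed that of day 28, with a log2 fold change of 0.16 ± 0.19 (SE, adjusted p = 0.713). Among 11 female-predominant genes, Akr1b7 was called lower, a call missed in 7 of 10 leave-one-out models. In that list 9 estimates were negative and 2 positive, the largest being 1.17, and the median was -0.60. Cyp2c12 had a log2 fold change of -0.28 (adjusted p = 0.889). Cyp17a1, a steroid 17-hydroxylase, had a log2 fold change of -1.06 ± 0.30 (SE, adjusted p = 0.0663), and Prlr, the prolactin receptor, had -1.78 ± 0.74 (SE, adjusted p = 0.213). Bile acid genes had no call in 20, and Cyp7a1, the rate-limiting enzyme of bile acid synthesis, had a log2 fold change of -0.23 ± 0.72 (SE, adjusted p = 0.915).

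**Figure D2:**
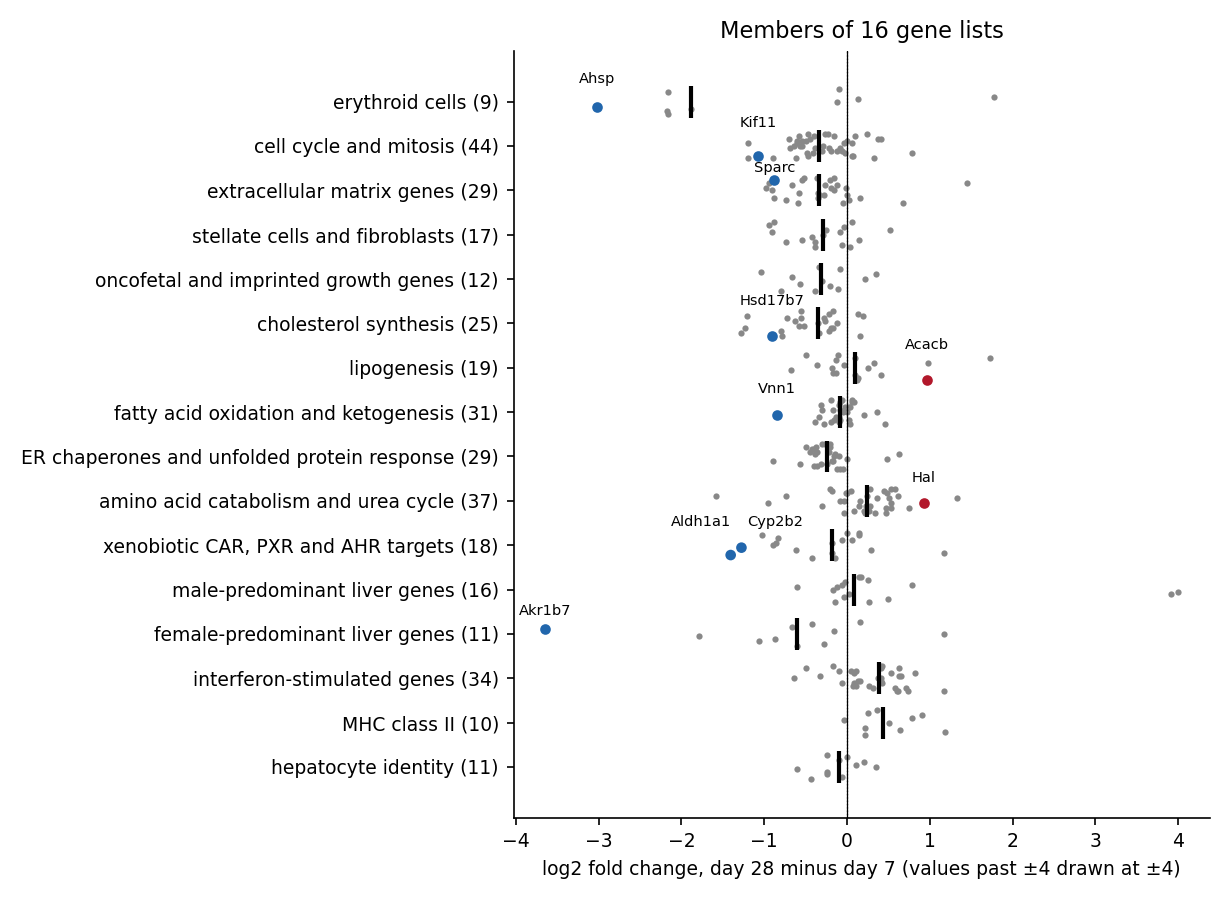
Each point is the log2 fold change of day 28 over day 7 of 1 tested gene in 16 of the gene lists, with a black bar at the median of the list and called genes in colour. Erythroid genes have the lowest median (-1.88), most cholesterol, matrix and cell cycle genes lie below 0, and no list holds more than 2 called genes.

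Genes higher at day 28 included a few with large changes from very low levels. AABR07037307.1, annotated as protein coding but named only by its clone, had 5.75, 0.341, 5.42, 3.79 and 4.26 CPM in day 28 livers, against 0, 0.0833, 0, 0 and 0 CPM in day 7 livers. Its 242 counts over the day 28 livers stood against 1 count over the day 7 livers, a ratio of 220.0 with a 95% Poisson interval of 39.1 to 8724 that covers counting error only. The groups did not overlap, the gene was called in all 20 alternatives that could test it (adjusted p = 0.000186 in the main model), and day 14 livers stood between at 0.808 ± 0.408 CPM (SD, n = 5). Tuba3b, mentioned after its values were seen, is an alpha tubulin gene with close copies among which reads may be split. It had 1.06, 2.5, 0.628, 0.656 and 0.732 CPM in day 28 livers, against 0.11, 0.0833, 0.126, 0.248 and 0.0583 CPM in day 7 livers. Tuba3b also rose without overlap, by 3.02 ± 0.77 on the log2 scale (SE, adjusted p = 0.041), but missed the threshold in 9 of the 10 leave-one-out models, all but that without day 28 library 5, with an adjusted p of up to 0.113.

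Krt10, a keratin best known from the upper layers of the epidermis, had 15.4, 6.02, 8.48, 7.14 and 10.3 CPM in day 28 livers, against 2.42, 0.916, 4.8, 4.34 and 0.641 CPM in day 7 livers. All day 28 values exceeded all day 7 values, and the log2 fold change was 2.06 ± 0.44 (SE, adjusted p = 0.0116). Without day 28 library 3 the adjusted p was 0.0644. Cacna2d4, an auxiliary subunit of voltage-gated calcium channels, had 3.41, 3.52, 3.54, 3.57 and 2.86 CPM in day 28 livers, against 1.43, 2.33, 0.631, 1.12 and 1.46 CPM in day 7 livers. It rose without overlap by 1.30 ± 0.27 on the log2 scale (SE, adjusted p = 0.00925, at most 0.0433 with any 1 library left out), and day 14 livers, at 1.47 ± 0.687 CPM (SD, n = 5), were like those of day 7.

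Further increases of 2-fold or more are mentioned after their values were seen. LOC100125368, which the table gives no name beyond its locus, did not overlap, with 1.17, 0.909, 0.707, 0.437 and 2.4 CPM in day 28 livers, against 0.22, 0.167, 0.126, 0 and 0.175 CPM in day 7 livers. Its log2 fold change was 2.65 ± 0.67 (SE, adjusted p = 0.0408), a call missed in 8 of 10 leave-one-out models, all but those without day 28 library 4 or day 7 library 2 (adjusted p up to 0.111). Slc25a22, Ksr2, Lzts3, Tnrc18 and Mbnl3 rose by 1.10 to 1.32 on the log2 scale and Lrtm2 by more, and all of them overlapped between groups. Leaving out 1 library ended the call of Ksr2 (day 7 library 5, adjusted p = 0.0575) and that of Tnrc18 (day 28 library 3, adjusted p = 0.062) in 1 model each. It ended those of Slc25a22 and Lzts3 in 7 models each and those of Lrtm2 and Mbnl3 in 8 each, with adjusted p-values up to 0.212. Sdr16c6, a short-chain dehydrogenase, had 31.8, 0.114, 16.6, 0.219 and 0.399 CPM in day 28 livers, against 0.22, 0, 0, 0.372 and 0.117 CPM in day 7 livers. Only 2 day 28 livers were high, and the log2 fold change of 6.01 ± 1.27 (SE, adjusted p = 0.0117) became 4.98 (adjusted p = 0.0622) without day 28 library 1 and 5.26 (adjusted p = 0.0945) without day 28 library 3. Ltc4s, the leukotriene C4 synthase, had 10.4, 0.227, 4.56, 2.19 and 0.266 CPM in day 28 livers, against 0, 0.0833, 0.379, 0.372 and 0 CPM in day 7 livers. High values were those of day 28 libraries 1, 3 and 4, while 2 and 5 were within the day 7 range, with a log2 fold change of 4.63 ± 0.86 (SE, adjusted p = 0.00402, at most 0.0288 with any 1 library left out).

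Clec4g, a C-type lectin of the liver sinusoidal endothelium, had 4.69, 14, 14.9, 13 and 11.5 CPM in day 28 livers, against 4.84, 4.91, 3.79, 3.22 and 7.46 CPM in day 7 livers. Day 28 libraries 2 to 5 lay above every day 7 liver and library 1 did not, and Clec4g rose by 1.34 ± 0.27 on the log2 scale over all (SE, adjusted p = 0.00925, at most 0.032 with any 1 library left out). It was the only call among 19 endothelial markers, whose median log2 fold change was -0.06 and whose summed level was 365 to 436 CPM in day 28 livers and 350.2 to 422 CPM in day 7 livers.

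Several small changes separated the groups completely. Iffo1, an intermediate filament family orphan, had 3.09, 3.52, 4.48, 3.43 and 3 CPM in day 28 livers, against 2.09, 2.17, 1.77, 1.98 and 1.98 CPM in day 7 livers, a log2 fold change of 0.81 ± 0.20 (SE, adjusted p = 0.0384). The RNA-binding protein gene Lsm14b rose by 0.48 (SE 0.12, adjusted p = 0.0396) and the centromere protein gene Cenpb by 0.46 (SE 0.12, adjusted p = 0.0476) on the log2 scale. Of the 10 leave-one-out models, 8 missed the call of Iffo1 (adjusted p up to 0.14, all but those without day 28 library 5 or day 7 library 2), 8 that of Lsm14b (up to 0.12, all but day 28 library 5 and day 7 library 4) and 9 that of Cenpb (up to 0.182, all but day 28 library 5). Tmx4, a thioredoxin-related protein of the endoplasmic reticulum, had 29.9, 30.0, 20.8, 28.1 and 31.0 CPM in day 28 livers, against 45.5, 45.1, 39.8, 47.4 and 31.8 CPM in day 7 livers. It fell by 0.60 on the log2 scale (SE 0.15, adjusted p = 0.0383), the groups being separated only narrowly by day 7 library 5. Kdelc1, another resident of that compartment, fell by 0.67 (SE 0.17, adjusted p = 0.0408) and the membrane protein gene Tmem50b by 0.53 (SE 0.13, adjusted p = 0.0408), also without overlap. Leaving out 1 library ended the call of Tmx4 in 6 models (day 28 library 1, 2 or 3, day 7 library 1, 2 or 4, adjusted p up to 0.129). It ended that of Kdelc1 in 8 (all but day 28 library 5 and day 7 library 4, up to 0.122) and that of Tmem50b in 7 (all but day 28 library 2 and day 7 libraries 2 and 5, up to 0.113).

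None of 29 genes of endoplasmic reticulum chaperones and the unfolded protein response was called, although 27 estimates were negative and the median log2 fold change was -0.24. Pdia4, a protein disulphide isomerase, had the smallest adjusted p of that list (0.0885), with 172, 226, 210.3, 185 and 229.9 CPM in day 28 livers, against 229, 235, 231, 327 and 334 CPM in day 7 livers. Its groups overlapped by 1 library on each side, with a log2 fold change of -0.40 ± 0.12 (SE). Among 23 genes of large proteins, which mark one end of the library score, Dst and Sptan1, both encoding large cytoskeletal linkers, were called higher by 0.44 ± 0.12 (SE, adjusted p = 0.0457) and 0.51 ± 0.12 (SE, adjusted p = 0.0294). Both overlapped in CPM, and without the score their log2 fold changes were 0.22 and 0.32, each with an adjusted p of 1. Dst was missed in 9 leave-one-out models (all but that without day 7 library 5, adjusted p up to 0.135) and Sptan1 in 5 (without day 28 library 2 or 3 or day 7 library 1, 3 or 4, up to 0.0973). None of 68 ribosomal protein genes, the other end of that axis, was called, with a median of 0.15.

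Immune lists held no called gene. Interferon-stimulated genes had 28 positive and 6 negative estimates and a median log2 fold change of 0.38, and Ifi27 was at 1427, 970.0, 428, 402 and 930.2 CPM in day 28 livers, against 505, 261.9, 1106, 552 and 219 CPM in day 7 livers. Those ranges overlapped in part, with an adjusted p of 0.22. MHC class II genes, which antigen-presenting cells carry, had 9 positive estimates of 10 and a median of 0.43, none with an unadjusted p under 0.05 in the edgeR test. B cell and plasma cell markers had 7 negative estimates of 8 and a median of -0.34. T and natural killer cell markers had 10 negative estimates of 17 and a median of -0.07. Macrophage markers had a median of -0.20 over 17 genes, with a summed level of 451 to 904 CPM in day 28 livers and 568 to 1115 CPM in day 7 livers. Across all 39 lists, 11 held a called gene. Of all genes tested, 0.888% were called, and whether the lists depart from that share was not tested.

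Day 14 vehicle livers were not a side of any comparison here, though the model and the library score used all 60 libraries. They were placed beside both groups as a description. For 33 of the 39 lower genes the day 14 mean lay between those of day 28 and day 7, nearer to day 28 for 17 and nearer to day 7 for 16, and by day 14 the median gene had covered 37.6% of its change. For the 69 higher genes the day 14 mean lay between in 40, beyond the day 7 mean in 28, and the median share covered was 5.52%. These placements use means of log2 CPM (with a prior count of 2) and no library score. The score averaged -0.56 in day 14 livers, -0.18 in day 28 livers and -0.06 in day 7 livers. Its part in the placements was not tested. Aldh1a1, at 192 ± 39.8 CPM, Cyp2b2, at 81.9 ± 47.4 CPM, and Alox15, at 0.43 ± 0.127 CPM, were nearer to day 28 by day 14 (SD, n = 5 each). Sparc, Cacna2d4 and Tmx4, the last at 41.0 ± 10.6 CPM (SD, n = 5), were still near their day 7 levels.

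**Figure D3:**
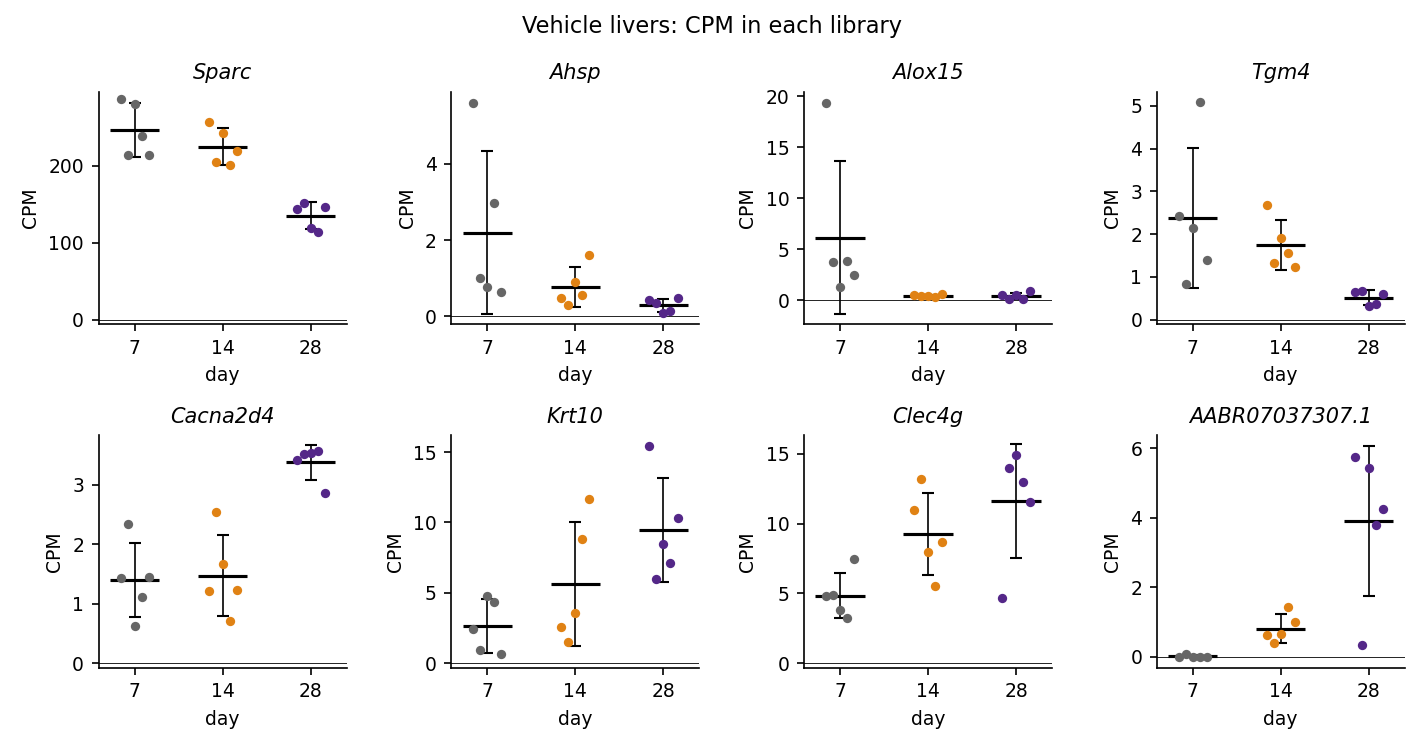
CPM of 8 called genes in each vehicle liver at day 7, 14 and 28, with 1 point per liver, a bar at the mean and error bars of 1 SD (n = 5 each). Sparc, Ahsp, Alox15 and Tgm4 are lower and Cacna2d4, Krt10, Clec4g and AABR07037307.1 higher at day 28 than at day 7, and only Clec4g overlaps between these groups.

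Rats that received PFOA give the same time difference in other animals, with the exposure added and the days of killing shared. Between the 5 day 28 and the 5 day 7 livers of the 1 mg/kg rats, 587 genes were called (4.82%), with 3.18% of all genes higher and 1.64% lower. Of the 108 genes of the vehicle comparison, 100 had the same sign there (92.6%), against 66.6% of all genes tested, and 17 were called in the same direction, 12 higher and 5 lower. Those 17 are 15.7% of the 108 and 2.9% of the 587. In the 5 mg/kg rats, with 335 genes called (2.75%), 96 had the same sign (88.9%, against 63.2% of all genes) and 13 were called in the same direction, 12% of the 108 and 3.88% of the 335. In the 15 mg/kg rats, with 28 called (0.23%), 76 had the same sign (70.4%, against 57.6% of all genes) and 2 were called.

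Sparc fell by nearly the same amount in both sets of rats. At 1 mg/kg it averaged 136 ± 32.5 CPM in day 28 livers and 262.7 ± 31.7 CPM in day 7 livers (SD, n = 5 each), a log2 fold change of -0.88 ± 0.15 (SE, adjusted p = 0.000209). Its log2 fold change was -0.70 (adjusted p = 0.00612) at 5 mg/kg and -0.58 (adjusted p = 0.0731) at 15 mg/kg. Cacna2d4 averaged 5.83 ± 1.58 CPM in day 28 livers and 1.81 ± 0.47 CPM in day 7 livers of the 1 mg/kg rats, a log2 fold change of 1.52 ± 0.24 (SE, adjusted p = 6.67e-05), but its log2 fold change was 0.20 (adjusted p = 0.657) at 5 mg/kg and 0.28 (adjusted p = 0.731) at 15 mg/kg. At 1 mg/kg, Tuba3b rose by 3.55 on the log2 scale (adjusted p = 0.000616), Acacb by 0.84 (adjusted p = 0.0297), and Hsd17b7 fell by 0.92 (adjusted p = 0.00845). None of these 3 was called at the higher doses: at 5 and 15 mg/kg, Tuba3b had 1.63 and 1.49, Acacb 0.37 and -0.01, and Hsd17b7 -0.23 and -0.36 on the log2 scale, with adjusted p-values of 0.0501 or more. Cholesterol synthesis had 7 genes called lower at 1 mg/kg and a median log2 fold change of -0.61, with Sqle at -2.19 (adjusted p = 0.000341), Idi1 at -2.81 (adjusted p = 9.47e-06) and Msmo1 at -1.75 (adjusted p = 0.00115). At 5 mg/kg these 3 genes were not called, with Sqle at -0.39, Idi1 at -0.67 and Msmo1 at -0.36. Ahsp missed the threshold at 1 mg/kg, with -1.46 (adjusted p = 0.0666), passed it at 5 mg/kg, with -1.82 (adjusted p = 0.0343), and had -0.05 (adjusted p = 0.991) at 15 mg/kg.

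Other genes differed between the sets of rats, by a test of the difference itself, in which 22 of all genes were called (0.181%). Vnn1 rose at 1 mg/kg, with 499 ± 105 CPM in day 28 livers and 294 ± 44.8 CPM in day 7 livers (SD, n = 5 each), and the difference from the vehicle change was 1.69 ± 0.28 on the log2 scale (SE, adjusted p = 0.000516). At 5 and 15 mg/kg Vnn1 had log2 fold changes of -0.25 (adjusted p = 0.536) and -0.23 (adjusted p = 0.757), the sign seen in vehicle livers. Aldh1a1 averaged 815 ± 168 CPM in day 28 livers and 531 ± 104 CPM in day 7 livers at 1 mg/kg, and its change differed by 1.90 ± 0.37 (SE, adjusted p = 0.00716). Cyp2b2, with 744 ± 209 CPM in day 28 livers and 383 ± 197 CPM in day 7 livers, differed by 1.86 ± 0.42 (SE, adjusted p = 0.0355). These 3 genes had higher means at 1 mg/kg than in vehicle livers at both days. At 5 mg/kg, Aldh1a1 had a log2 fold change of -0.43 (adjusted p = 0.378) and Cyp2b2 one of -0.74 (adjusted p = 0.157), also negative as in vehicle livers. At 1 mg/kg, Vnn1 is the only gene of the 108 called in the opposite direction. Tgm4 differed by 2.16 ± 0.50 (SE, adjusted p = 0.0369), where its 1 mg/kg levels were 3.08 ± 0.862 CPM in day 28 livers and 4.07 ± 1.58 CPM in day 7 livers. Krt10 had 2.58 ± 1.59 CPM in day 28 livers and 5.73 ± 1.47 CPM in day 7 livers at 1 mg/kg, a difference of -2.78 ± 0.60 (SE, adjusted p = 0.0201). At 5 and 15 mg/kg Krt10 had log2 fold changes of -1.43 (adjusted p = 0.0727) and -1.08 (adjusted p = 0.455). Its rise in vehicle livers was thus not seen at any dose. AABR07037307.1 averaged 0.0968 CPM in day 28 livers and 0.0633 CPM in day 7 livers at 1 mg/kg, but that difference in change was not called (-6.84 ± 2.11, SE, adjusted p = 0.317).

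**Figure D4:**
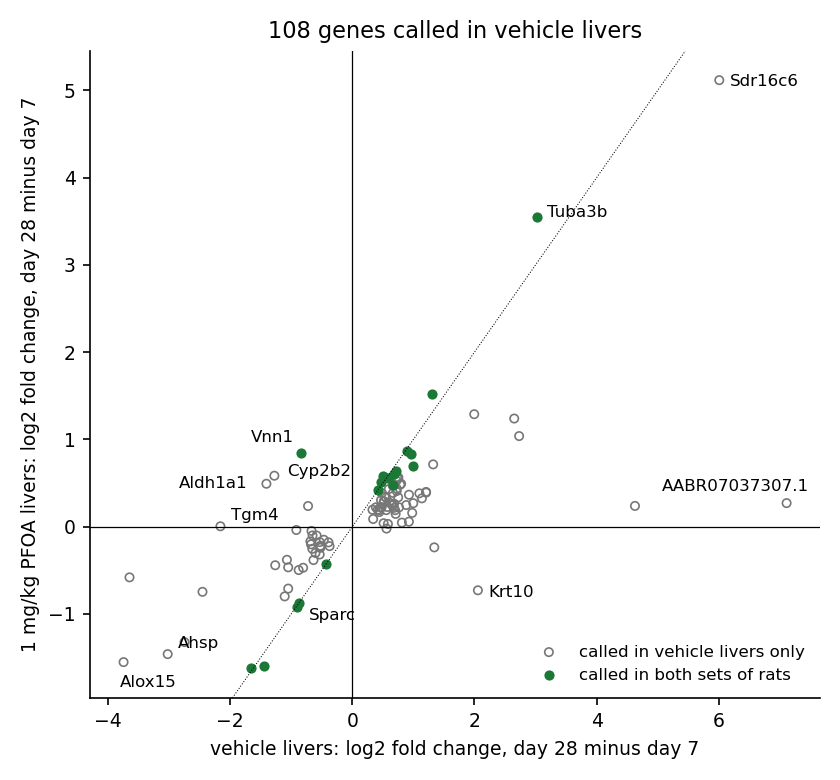
For the 108 genes called in the vehicle comparison, the log2 fold change of day 28 over day 7 in the 1 mg/kg livers is set up the page against that in the vehicle livers across. Points in the lower left and upper right have the same sign (100 of 108), and Vnn1 is the gene called in the opposite direction.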

How the data were processed

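Liver RNA of 60 rats was sequenced from stranded polyA libraries, 1 per rat. The deposited table holds raw read counts for 32883 genes, made by the authors, per the submitters' processing notes, with bcl2fastq 2.20.0.422, Trimmomatic 0.33, STAR 2.5.2b and featureCounts of Subread 1.6.0 on the rat build Rnor_6.0. Settings, annotation release and strand setting are not given in the sources used here, so reads of overlapping genes cannot be told apart. Of all reads, 1.39% were on genes with no symbol. For 25 symbols that had turned into dates, the name in the table's description was used.

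Groups were taken from the treatment labels, and libraries were numbered 1 to 5 in the order of the records, as no label numbers the replicates. After edgeR's filterByExpr (minimum count 10, minimum total 15), the remaining 12167 genes were scaled by TMM. A robust quasi-likelihood model (edgeR 4.0.16, R 4.3.3) held 12 group means and the library score over all 60 libraries, which leaves 47 residual degrees of freedom. The score is the mean of the 500 genes that follow most closely the leading principal component of the residuals around the group means (51.2% of their variance). A second axis held 6.88%. The biological coefficient of variation was 0.196 with the score and 0.388 without it. Called genes are those with a Benjamini-Hochberg adjusted p under 0.05, adjusted over the 12167 genes. SEs were derived from the F statistic and the log2 fold change. Total counts over the 60 libraries ran from 7965497 to 24770119, with a median of 12606152. Libraries of a vehicle group differed by more than counting noise (chi-square of at least 21.8 per degree of freedom).

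The members and the 39 gene lists were chosen with earlier results of these data known. Of 949 list memberships, 890 were found, 13 of them under another name, and 59 were not. Named genes were the called genes of largest change with a symbol, a mean of at least 1 CPM and no overlap (6 higher and 10 lower), a fixed set of growth-related genes, and up to 4 called members of each list or, with none called, the member of smallest p. The genes said to be mentioned after their values were seen, and the uncalled members given beside a list's count, were added to these. Alternatives were no score, the second axis, a score from the other 50 libraries, fewer libraries, the Wald test and size factors of DESeq2 1.42.0, limma-voom of limma 3.58.1, no filter, a fold of at least 1.5, and leaving out each library. Counts of this comparison were also simulated over 12167 genes from the fitted model itself, with its score and its estimates of spread. The changed genes were drawn only from those with a mean of at least 1 CPM. Of them, 38.8% changed 1.5-fold, 83.6% changed 2-fold and 93.9% changed 4-fold were recovered, and 0.0669% of unchanged genes were called. Recovery of genes of lower level, or where the real libraries depart from the model, was not tested. Promoters are RefSeq's for GRCr8, used for letters only, and no other coordinates are given because that build differs from the table's.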

Additional observations from a re-analysis of the deposited data

Results flagged for a closer look

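In 12 sets of 5 livers, 1 liver stood apart from the other 4; chance flags about 1 in 20, which would be 12.8 of the sets examined (the named genes and the library measures at each of the 3 days), so the number found is close to that of chance. In day 28 livers, AABR07037307.1 was low in library 2 (0.341 CPM, against 3.79 to 5.75 in the others), Clec4g in library 1 (4.69, against 11.5 to 14.9), Cacna2d4 in library 5 (2.86, against 3.41 to 3.57), Tmx4 in library 3 (20.8, against 28.1 to 31.0) and Col3a1 in library 4 (124, against 189.8 to 207). In day 14 livers, Gstp1, a glutathione transferase, was low in library 2 (11.9 CPM, against 21.6 to 23.8), Igf1 in library 4 (403, against 579 to 629) and Vnn1 in library 5 (77.7, against 130 to 157).

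In day 7 livers, 1 count set AABR07037307.1 in library 2 (0.0833 CPM) and 2 counts set Mup4 in library 5 (0.117 CPM) apart from libraries at 0. Mup4, a major urinary protein gene with near-identical copies and a symbol shared by 2 identifiers, had 231 counts over the day 28 livers and 2 over the day 7 livers, mostly from day 28 library 1, and was not called (adjusted p = 0.108). ENSRNOG00000051112, which has no symbol in the table, was high in day 7 library 4 (49.0 CPM, against 5.61 to 9.74), and Cenpb in day 7 library 3 (15.4, against 12.4 to 13.1).

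The change of day 28 over day 7 differed between the 1 mg/kg and the vehicle livers, in the edgeR test of that difference, for Tgm4 by 2.16, Aldh1a1 by 1.90, Cyp2b2 by 1.86, Vnn1 by 1.69 and Krt10 by -2.78 on the log2 scale.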

How the results depend on the processing

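The main counts were 69 higher genes, 39 lower genes and 17 genes shared with the 1 mg/kg rats. Without the score they were 2, 3 and 1, with the second axis added 17, 10 and 5, without a filter on low counts 22, 13 and 8, by DESeq2's Wald test 188, 65 and 54, and by limma-voom 39, 22 and 13. DESeq2 size factors gave 116 higher and 28 shared genes, the 10 libraries alone 17 lower, the 15 vehicle libraries alone 21 lower, and a fold of at least 1.5 gave 11 shared. Scores from the other 50 libraries gave the main counts again. Leaving out 1 library gave 7 to 168 higher, 8 to 91 lower and 4 to 49 shared genes. Counts moved by over 1.5 times in at least 1 direction for each library except day 7 library 2, and day 28 library 5 was the one whose absence raised them by that much. Over all settings and named genes, a call was ended 371 times, made 25 times and reversed 0 times. The cause of these differences was not tested. The score and the mitochondrial share kept their main result with any library left out. With 5 rats a group, 1.5-fold changes of genes of at least 1 CPM were recovered in 38.8% of cases simulated from the fitted model. Many changes of that size would therefore not be detectable here. No paired analysis was possible because each library is the liver of a different rat.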

Other observations

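Iron genes, which hepatocytes use to regulate uptake, had no called member among 17, with a median log2 fold change of 0.16. Hamp, the hormone hepcidin that limits iron release into blood, had 1192, 1229.7, 580.0, 689 and 1149.9 CPM in day 28 livers, against 123, 237, 687, 1271 and 189.7 CPM in day 7 livers. Day 7 libraries 1, 2 and 5 were low, libraries 3 and 4 lay within the day 28 range or above it, and the log2 fold change was 1.11 ± 0.35 (SE, adjusted p = 0.103). Tfr2, a receptor that feeds into hepcidin control, had 0.48 ± 0.14 (SE, adjusted p = 0.0764).

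Igfals, which holds circulating IGF in a stable complex, had 75.4, 57.6, 244, 169 and 123 CPM in day 28 livers, against 48.1, 89.8, 60.1, 37.3 and 82.5 CPM in day 7 livers. Day 28 libraries 3, 4 and 5 were above every day 7 liver, with a log2 fold change of 1.07 ± 0.35 (SE, adjusted p = 0.111). Circadian clock genes had no called member among 19 and a median of 0.01, and Nr1d1, a repressor of the clock, had 1.52 ± 0.65 (SE, adjusted p = 0.224).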
